A study of Mus musculus with 2 samples.

Results

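The genes described here encode the machinery that lets a keratinocyte take up, store, release and read calcium. They are 40 genes chosen by their function, with earlier results of these data known. The list holds the calcium-sensing receptor, a calcium-regulating hormone with its receptor, entry channels and store sensors, and calcium pumps. It also holds release channels, phospholipases and G proteins, and calcium-binding or calcium-dependent effectors. Of the 40, 38 had at least 1 of the array's 25697 probes, and 25 were detected above background, while the whole array named 18036 genes and detected 8564. All 25 were detected in both genotypes. On its brightest probe, none of them differed by 1.2-fold or more between the knockout and the control sample. That limit was passed by 5.86% of all detected genes in either direction. A second, less bright probe of Atp2a2 was 1.22-fold higher in the knockout. For 21 of the 25 genes only 1 probe was detected, so their ratios could not be compared between probes.

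Epidermis lifted with dispase from the back skin of C57BL6 mice at postnatal day 5 was compared between genotypes. The control carried floxed alleles of the receptor gene (CaSR fl/fl) and the knockout carried the same floxed alleles with a Cre recombinase driven by the promoter of K14, a keratin of basal keratinocytes. Keratinocytes of the upper layers descend from those basal cells, whereas cells of other lineages in which that promoter was never active keep the gene. RNA of 3 mice was pooled for each genotype and put on 1 Illumina bead array. There was thus 1 sample in each of the 2 groups, no value below has a replicate error, and no test was possible. A sentence of the labels' protocols names a VDR knockout where all other labels name the CaSR knockout, which was followed.

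Extracellular calcium is the classical switch for keratinocyte differentiation. The calcium-sensing receptor couples through Gq-type G proteins to phospholipase C, which makes diacylglycerol and inositol trisphosphate. The second of these opens release channels of the endoplasmic reticulum, and the emptied store is sensed by Stim proteins, which open Orai channels in the plasma membrane. Pumps refill the stores or expel calcium, while calmodulins, protein kinase C and calcineurin with NFAT pass the signal on.

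Signals are the authors' normalised intensities, with a detection p-value for each probe and array. A probe counted as detected at a detection p-value of at most 0.01, and the brightest detected probe stands for its gene. Ratios are knockout over control. By the values, no background had been subtracted from the signals. Probes with a detection p-value between 0.4 and 0.6, near the middle of the negative controls, had a median intensity of 131.2 (control) and 130.9 (knockout), which pulls the ratio of a weak signal towards 1. Where a gene had several detected probes, their log2 ratios spread with a pooled SD of 0.11 (2038 genes), equal to 1.08-fold. That SD is a scale for differences between probes on the same arrays and holds no variation between pools of mice. Intensities of different probes depend on the probe, so levels are compared here only between genotypes and not between genes.

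The samples carried the markers of epidermis. Of 11 keratinocyte markers 10 were detected, and their summed intensity was 101670 in the control and 97233 in the knockout, with 4 above 0 and 6 below 0 in log2 ratio (from Ivl at -0.49 to Krt10 at 0.22). Markers of endothelium were largely undetected (Egfl7 alone of 4), as were those of Schwann cells and nerve (Mbp alone of 4), mast cells (0 of 4, 3 of them on the array) and adipocytes (0 of 3). Among fibroblast markers Col1a2, Col3a1, Lum and Pdgfra were not detected, and the 3 detected summed to 1781 in the control and 1608 in the knockout. Langerhans and myeloid markers summed to 11709 and 12384 (5 of 7 detected, all 5 above 0 in log2 ratio, Ptprc and Lyz2 not detected), and T cell markers to 2795 and 2551 (4 of 5 detected, all 4 below 0, Trdc not analysed here). Melanocyte markers summed to 4115 and 4121 (4 of 5 detected). Skeletal muscle markers, which include the calcium genes Atp2a1, Ryr1 and Casq1, summed to 1082 and 1124 (5 of 9 detected, not Ryr1 or Casq1). Sebocyte markers summed to 10107 and 8762 (3 of 3, with Scd1 giving most of the sum, Awat2 at a log2 ratio of -0.50 and Mc5r at 0.43). Erythroid markers summed to 624.8 and 387.6 (2 of 3). Of these, Hba-a1 read 443.2 in the control and 239 in the knockout, the lowest log2 ratio of the markers (-0.89). Alas2 read 181.6 and 148.6, the knockout value lying below the lowest detected signal of its array. Among all detected genes 52.1% were above 0 and 47.5% below, and each marker set is small beside these shares. In such bulk tissue, fewer cells of a type and less RNA per cell cannot be told apart. The part of these cells in the ratios below was not tested.

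The deleted gene itself gave no usable signal. Casr, listed under its older name Gprc2a, had 1 probe, which read 122.9 in the control and 148.2 in the knockout, with detection p-values of 0.891 and 0.0639. Neither value was above background, and since the position of this probe relative to the floxed exon was not known here, it checks nothing about the genotypes. The gene lies between Stfa3 and Cd86 in the order of protein-coding genes of GRCm38.p6.

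Pthlh, which encodes the parathyroid hormone-related protein that keratinocytes secrete, had an intensity of 421.0 in the control and 392.7 in the knockout. Its log2 ratio of -0.10 lay within 1 SD of the spread between probes. The receptor for this hormone, Pth1r, was not detected by any of its 3 probes, whose intensities lay between 124.2 and 133.6.

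Calcium entry through store-operated channels gave small differences of opposite direction. Orai1, the pore subunit of the main store-operated channel, had an intensity of 734.3 in the control and 641.6 in the knockout. That is 1.14-fold lower in the knockout (log2 ratio -0.19), the lowest ratio of the 25 detected genes. Orai3, a related pore subunit, was higher in the knockout, with 175.8 in the control and 193.5 in the knockout (log2 ratio 0.14). Its signal lay little above background, and after background subtraction the ratio became 1.40-fold. Orai2 was not detected, with intensities of 132.4 and 127.6. Stim1, the calcium sensor of the endoplasmic reticulum that opens these channels, was at 512.0 in the control and 551.1 in the knockout, a log2 ratio of 0.11. The array carried no probe for the second sensor, Stim2.

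The promoter sequences of Plcb3 and Orai1 are shown because these genes had the highest and the lowest ratio of the 25 detected genes of the list, and that of Casr because it is the deleted gene. Each is the 250 bases before the annotated start in RefSeq, build GRCm38.p6, read 5′ to 3′ on the gene's strand. Capitals mark GC boxes (GGGCGG), AP-1 sites (TGANTCA) and nuclear receptor half-sites (AGGTCA), the last being the kind of element that the vitamin D receptor and other nuclear receptors bind. All were searched on both strands. An NFAT core (GGAAA) and a TATA box (TATAAA) were also searched and are not marked.
Casr (chr16:36562135-36562384, minus strand): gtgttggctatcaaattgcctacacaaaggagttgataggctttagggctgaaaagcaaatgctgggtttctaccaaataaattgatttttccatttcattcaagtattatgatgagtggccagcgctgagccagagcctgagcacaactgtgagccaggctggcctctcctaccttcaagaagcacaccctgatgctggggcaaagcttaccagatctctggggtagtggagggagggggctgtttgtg
Plcb3 (chr19:6969815-6970064, minus strand): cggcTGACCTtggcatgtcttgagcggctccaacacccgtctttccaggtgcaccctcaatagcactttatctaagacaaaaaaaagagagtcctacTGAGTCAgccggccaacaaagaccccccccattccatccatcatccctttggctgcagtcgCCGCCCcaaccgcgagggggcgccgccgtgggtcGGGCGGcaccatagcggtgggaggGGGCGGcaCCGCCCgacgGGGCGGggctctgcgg
Orai1 (chr5:123014824-123015073, plus strand): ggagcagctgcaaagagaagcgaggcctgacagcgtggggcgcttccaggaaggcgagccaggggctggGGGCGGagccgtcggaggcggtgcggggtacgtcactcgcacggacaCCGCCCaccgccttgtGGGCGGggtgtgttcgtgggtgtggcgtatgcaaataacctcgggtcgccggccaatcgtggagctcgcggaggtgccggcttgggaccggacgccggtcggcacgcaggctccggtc
The Plcb3 window held 5 GC boxes, 1 AP-1 site and 1 half-site, and 64.4% of its bases were G or C. In the Orai1 window there were 3 GC boxes and neither of the other motifs, with 70.8% G or C. None of the 3 marked motifs was found in these 250 bases of Casr, where 48.8% of bases were G or C. Casr and Plcb3 each held 1 NFAT core and Orai1 held none, while no TATA box was found in these windows. Of 32851 such promoters, 32.7% held a GC box, 6.75% an AP-1 site and 14% a half-site. An NFAT core was in 55.6% of them and a TATA box in 12.4%. The median G or C content of these promoters was 52.4%. A match is a run of letters and not evidence of binding, and the expression of Plcb3 and Orai1 cannot be read from it.

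Of the TRP entry channels, Trpv4 and Trpv6 were detected. Trpv4, a channel opened by warmth and osmotic stretch, had nearly the same intensity in both samples, 252.5 in the control and 253.7 in the knockout (log2 ratio 0.01), and its other 2 probes were not detected. Trpv6, a calcium-selective channel known as a vitamin D target in the intestine, gave ratios of opposite sign on its 2 detected probes. The brighter probe read 217.7 and 239.8 (log2 ratio 0.14) and the other 212.9 and 204.6 (log2 ratio -0.06), so no direction can be given for the gene. Trpv3, the warmth-sensing channel of keratinocytes, was not detected (135.8 and 130.3), nor were both probes of Trpc1.

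Trpc4 and Trpc6, members of the receptor-operated TRP family, passed a looser detection limit of 0.05 in the control alone. The Trpc4 probe read 153.7 in the control and 133.8 in the knockout, with detection p-values of 0.0376 and 0.373. The Trpc6 probe read 151.3 and 131.0, with detection p-values of 0.0489 and 0.496. Neither counted as detected at the limit of 0.01, and no ratio is given. A weaker probe of Nfatc1 (detection p-values 0.165 and 0.0363) and one of Trpv4 (0.0551 and 0.0251) passed 0.05 in the knockout alone. The share of all probes passing this limit in a single array was not counted, so these passes show no difference between genotypes.

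**Figure D1:**
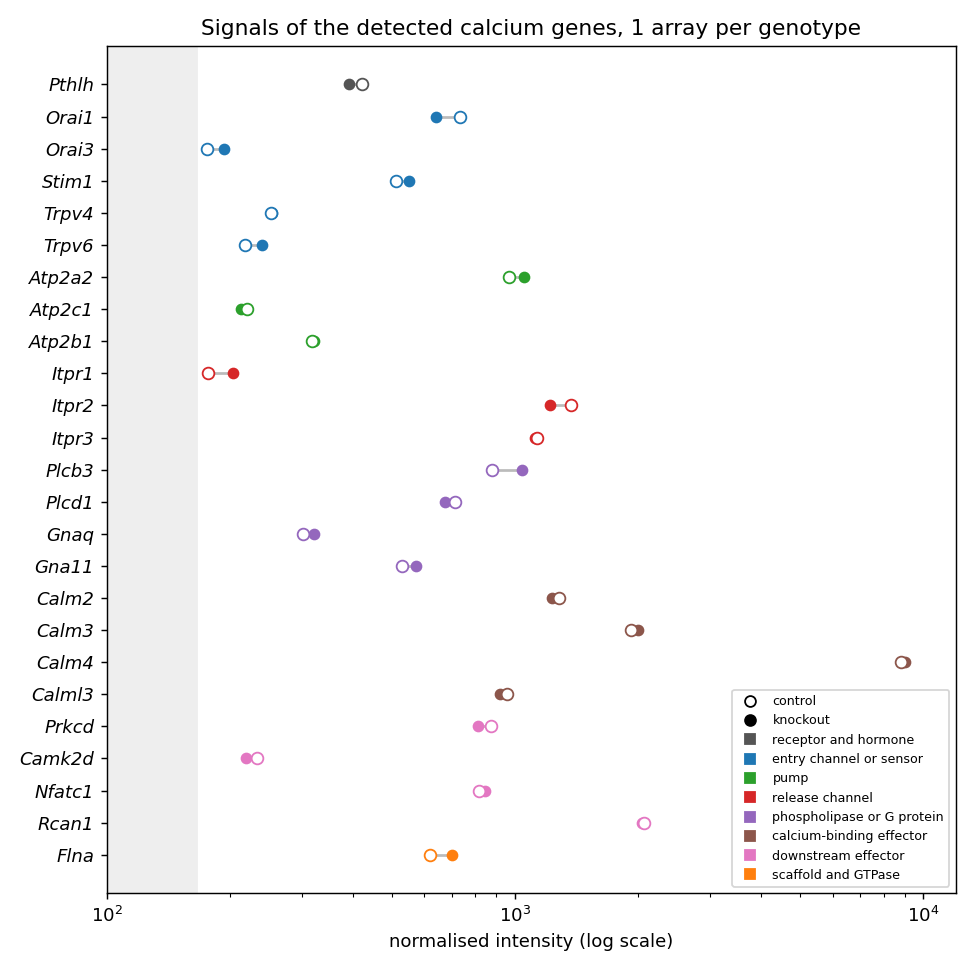
Normalised intensity (horizontal axis, log scale) of the brightest detected probe of each of the 25 detected calcium genes in the control (open circle) and the knockout sample (filled circle), coloured by role, with 1 array per genotype. Intensities below the lowest detected signal are shaded grey. The circles of each pair lie close together, and the pairs of Orai3 and Itpr1 sit nearest to the shaded zone.

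The calcium pumps differed little. Atp2a2 encodes SERCA2, which loads the endoplasmic reticulum and is mutated in human Darier disease. On its brighter probe the intensity was 965.3 in the control and 1052.9 in the knockout (1.09-fold higher, log2 ratio 0.13). On its other probe it was 524.6 and 642.0 (1.22-fold higher, log2 ratio 0.29). Both probes thus read higher in the knockout, by amounts that differ by more than the SD between probes. Atp2c1, the Golgi pump mutated in human Hailey-Hailey disease, was at 220.7 and 213.1 (log2 ratio -0.05) on the 1 detected of its 2 probes. The plasma membrane pump gene Atp2b1 was at 318.2 and 322.0 (log2 ratio 0.02), and Atp2b4, another plasma membrane pump, was not detected by either of its probes.

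The inositol trisphosphate receptors, which release calcium from the endoplasmic reticulum, were all detected and did not share a direction. Itpr1 was higher in the knockout, at 176.6 in the control and 203.7 in the knockout (1.15-fold, log2 ratio 0.21). Itpr2 was lower, at 1373.0 and 1220.1 (1.13-fold, log2 ratio -0.17), on the 1 of its 3 probes that was detected. Itpr3 was nearly equal, at 1133.8 and 1118.1 (log2 ratio -0.02). The Itpr1 signal lay close to background. With the background subtracted its ratio was 1.60-fold, the one value of any listed gene to pass 1.5-fold under an alternative, at which 3.62% of all detected genes were also at least 1.5-fold higher.

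Phospholipase C and its G proteins held the highest ratio of the list. Plcb3, a Gq-activated phospholipase C isoform, had an intensity of 878.9 in the control and 1042.7 in the knockout (1.19-fold higher, log2 ratio 0.25). By brightest probes it was the single listed gene whose ratio lay beyond 2 SDs of the spread between probes (4% of the 25). Among all detected genes 9.65% did so. The less bright Atp2a2 probe, at a log2 ratio of 0.29, also lay beyond 2 SDs, and Plcb3 itself had only 1 probe. Plcd1, an isoform that calcium itself activates and whose loss in mice disturbs hair and skin, was at 712.9 and 671.9 (log2 ratio -0.09). Gna11 and Gnaq encode the alpha subunits that link the receptor to phospholipase C. Gna11 was at 528.9 and 571.6 (log2 ratio 0.11). Gnaq was at 303.0 and 321.2 (log2 ratio 0.08), on the 1 of its 3 probes that was detected. The intensities of Plcg1, the isoform activated by tyrosine kinases, were 125.7 and 135.3, and those of Plcb1 were 123.7 and 125.5, neither above background.

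Calmodulins and their epidermal relatives had even signals. Calm2 and Calm3 are separate genes that encode the same calmodulin protein. Calm2 was at 1280.5 in the control and 1230.3 in the knockout (log2 ratio -0.06), and Calm3 was at 1926.1 and 1997.8 (log2 ratio 0.05). Calm4, a calmodulin-like gene of differentiating mouse epidermis, was at 8834.7 and 9031.2 (log2 ratio 0.03), and Calml3, a calmodulin-like gene of epithelia, was at 954.1 and 919.6 (log2 ratio -0.05). The 4 ratios spanned -0.06 to 0.05, all inside 1 SD of the spread between probes. No probe or gene record carried the name Calml5. In gene order Calml3, Calm4 and Calm5 are adjacent protein-coding genes, and Calm5, named after its value was seen, was at 1604.4 and 1455.5 (log2 ratio -0.14).

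Effectors further downstream were likewise even. Prkcd, the protein kinase C isoform of differentiating keratinocytes, was at 873.8 in the control and 813.4 in the knockout (log2 ratio -0.10). The conventional isoform Prkca (153.0 and 156.3, detection p-values 0.0388 and 0.0226) and the isoform Prkce (146.9 and 144.0) were not detected. Camk2d, a calmodulin-dependent kinase, was at 233.0 and 219.2 (log2 ratio -0.09) on the 1 detected of its 4 probes.

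Of the calcineurin axis, the listed genes Nfatc1 and Rcan1 could be read on several probes. Nfatc1, the transcription factor that calcineurin activates, had 4 detected probes with log2 ratios of 0.05, 0.01, -0.03 and -0.05. The brightest of them read 814.8 in the control and 845.5 in the knockout. Rcan1, a calcineurin inhibitor that is itself an NFAT target and was listed under the older name Dscr1, read 2068.2 and 2041.7 on its brighter probe (log2 ratio -0.02) and 232.1 and 232.0 on the other. Both genes were therefore equal between the samples on every detected probe to within 1 SD of the spread between probes. The genes of calcineurin itself were in the wider list described below. Ppp3ca was at 1426.8 in the control and 1219.5 in the knockout (log2 ratio -0.23), and its other detected probe gave 0.04. Log2 ratios were 0.09 for Ppp3cb, -0.09 for Ppp3cc and 0.03 for Ppp3r1.

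Flna encodes filamin A, an actin cross-linker known to bind the tail of the calcium-sensing receptor. Its intensity was 618.3 in the control and 702.3 in the knockout (1.14-fold higher, log2 ratio 0.18). Rhoa, the small GTPase that acts with it downstream of the receptor, was not detected on its 1 probe (124.3 and 136.6).

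**Figure D2:**
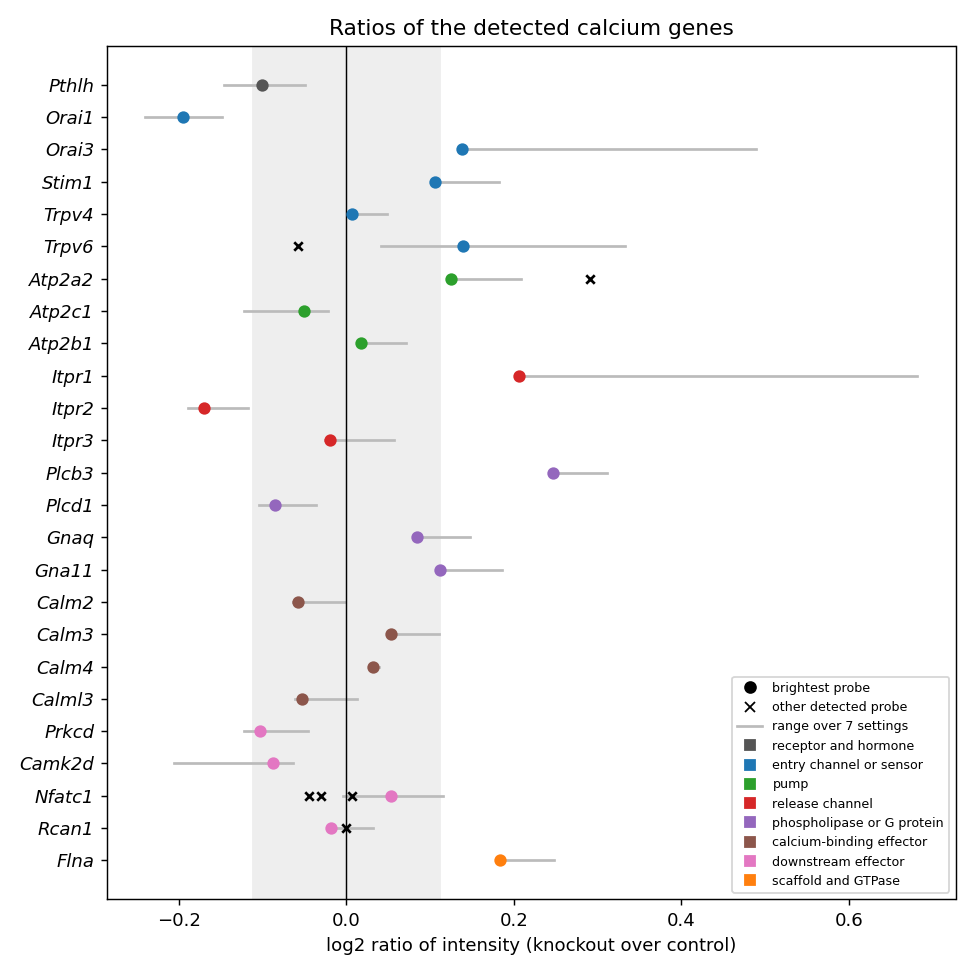
Log2 ratio of intensity, knockout over control, of the 25 detected calcium genes (filled circles, brightest probe), with other detected probes as crosses and the range over 7 other processing settings as grey lines. The shaded band is 1 SD of the spread between probes of a gene (0.11). Plcb3 and Itpr1 lie farthest to the right and Orai1 and Itpr2 farthest to the left, and the longest grey lines belong to Itpr1 and Orai3.

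As a group the listed genes were spread like the rest of the array. Of the 25 detected, 14 had a log2 ratio above 0 and 11 below 0, against 52.1% above and 47.5% below among all detected genes. Their median log2 ratio was 0.02, and that of all genes 0.01. At 1.5-fold 0 of the 25 were called, beside 0.42% of all genes, and at 1.2-fold 0 of the 25, beside 5.86% of all genes. A limit of 1.1-fold was chosen after the values were seen. By it 5 genes were higher (Plcb3, Itpr1, Flna, Orai3 and, on its brighter probe alone, Trpv6) and 2 lower (Orai1 and Itpr2). Among all genes 14.2% were higher and 13.6% lower by that limit, 27.7% in either direction, which is close to the 7 of 25 listed genes. Orai3, at a log2 ratio of 0.138, lay just inside it and Atp2a2, at 0.125, just outside. With the table before normalisation, scaled to equal medians, the split was 9 higher and 1 lower, while all genes split into 25.7% higher and 8.99% lower. The direction split at this limit thus depended on the scaling, for the listed genes and for the array as a whole.

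By role the counts were too small to set apart from the 52.1% above 0 and 47.5% below 0 among all detected genes. Among the 5 detected entry channels and sensors 4 were above 0 and 1 below, among the 3 pumps 2 and 1, and among the 3 release channels 1 and 2. Trpv6 stood among those above 0 by its brighter probe alone. Of the 4 detected phospholipases and G proteins 3 were above 0 and 1 below. The 4 calmodulins split evenly into 2 and 2, and of the 4 detected downstream effectors 1 was above 0 and 3 were below. Within the entry, release and phospholipase groups, genes of opposite sign stood side by side (Orai1 and Orai3, Itpr2 and Itpr1, Plcd1 and Plcb3).

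The 13 undetected genes (Casr, Pth1r, Orai2, Trpc1, Trpc4, Trpc6, Trpv3, Atp2b4, Plcg1, Plcb1, Prkca, Prkce and Rhoa) had 17 probes with intensities between 120.3 and 156.3. An undetected probe sets no level for its gene, since detection depends on the probe as well as the transcript. Genes with several probes show this directly. Itpr2 read 1373.0 in the control on 1 probe and 137.3 and 122.0 on its other 2, and Nfatc1 was undetected on 2 of its 6.

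A wider list of 129 other genes of calcium entry, storage, release and signalling was read in the same way. Of these 120 had a probe and 69 were detected, 67 of them in both samples. In log2 ratio 37 were above 0 and 32 below, beside 52.1% and 47.5% of all detected genes. The median of this list was 0.02. At 1.2-fold 2 were higher and 1 lower, beside 2.91% and 2.95% of all genes. Thus 95.7% of the detected genes of this list lay within 1.2-fold, beside 94.1% of all genes. At 1.1-fold 8 were higher and 8 lower, beside 14.2% and 13.6% of all genes.

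Saraf, which encodes a membrane protein that inactivates store-operated entry by acting on Stim1, had the highest ratio of the wider list on its brightest probe. That probe read 1616.4 in the control and 2076.9 in the knockout (1.28-fold higher, log2 ratio 0.36). Its other 2 detected probes disagreed, with 447.0 and 484.2 (log2 ratio 0.12) and with 578.1 and 465.5 (log2 ratio -0.31), so no direction can be given for the gene. Slc8b1, the mitochondrial sodium-calcium exchanger, had the lowest ratio, with 759.2 in the control and 596.1 in the knockout (1.27-fold lower, log2 ratio -0.35). Nfat5, the NFAT family member that responds to osmotic stress and lacks calcineurin control, was at 713.6 and 886.1 (1.24-fold higher, log2 ratio 0.31), and its other detected probe gave a log2 ratio of 0.11. Camk1, a kinase activated by calmodulin, was at 458.2 and 386.7 (1.18-fold lower, log2 ratio -0.24).

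**Figure D3:**
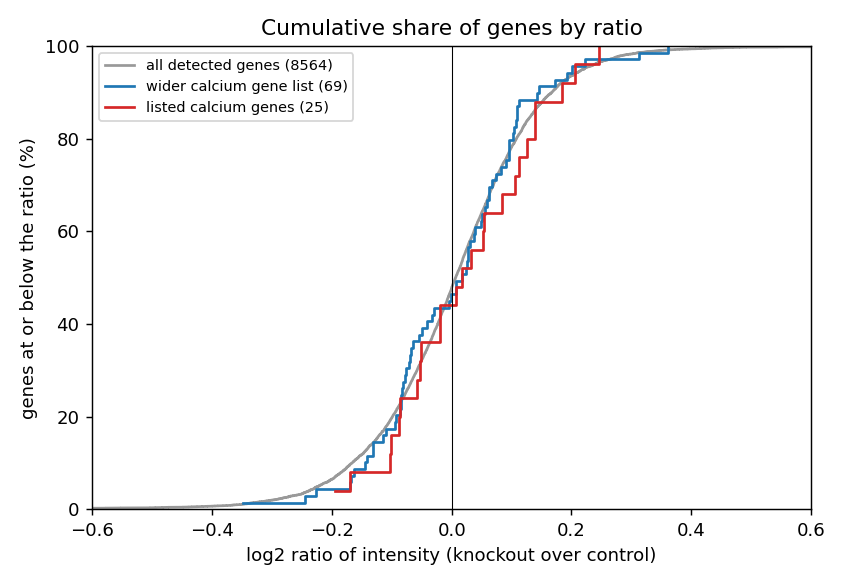
Cumulative share of genes (vertical axis, percent) at or below each log2 ratio of intensity, knockout over control (horizontal axis), for the 25 detected listed calcium genes (red), the 69 detected genes of the wider list (blue) and all 8564 detected genes (grey). The curves lie close to one another, and ratios beyond 0.6 in either direction, which occur among all genes, fall outside the axis.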

How the data were processed

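Total RNA of neonatal mouse epidermis was labelled with biotin and read with Cy3-streptavidin on Illumina bead arrays, per the labels' protocols. The submitters' processing notes name GenomeStudio 2011.1. Per the file headers, the authors deposited intensity before and after normalization, 1 value per probe and sample, with a detection p-value. How the arrays were normalized is not stated in those headers or labels. In the normalized table the ranked intensities of both arrays matched to within 0.172 percent, and the authors' deposited value table was identical (maximum difference 0).

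Normalized intensities were raised to the lowest detected signal of their array (164.9 in the control, 165.9 in the knockout sample) and log2 transformed with pandas 2.3.3. Probes were named through gene ID, then accession, from RefSeq genes of GRCm38.p6 (24358 probes), and otherwise kept the file's symbol (1339). All 25 listed genes reported with a ratio were detected in both samples at a detection p-value of at most 0.01.

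With 1 sample in each group no test was made; the number of arrays limits the precision. Counts at 1.5-fold, 1.2-fold and 1.1-fold are descriptions, set beside the share of all 8564 detected genes. The listed genes, the wider list and the markers were chosen with earlier results of these data known. All listed genes are accounted for. From the wider list, genes past 1.2-fold and the 4 largest ratios are named. Calm5 and the calcineurin genes were added after their values were seen. The procedure was tested on simulated data with planted changes of at least 1.5-fold and no variation between pools of mice. That test therefore says nothing about ratios as small as those of the listed genes. Promoters came from RefSeq (33 of 40 listed genes matched).

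Alternatives were the table before normalization scaled to equal medians, loess centring (statsmodels 0.14.6), background subtraction, detection at 0.05, no detection filter, the mean over probes, and detection in both samples.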

Additional observations from a re-analysis of the deposited data

How the results depend on the processing

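Of the 25 detected genes, 21 kept the sign of their ratio under all 7 alternatives listed in the methods. Not all of these could change a sign. Detection at 0.05, no detection filter and detection in both samples left each gene's ratio as it was (largest shift 0). Loess centring moved no ratio by more than 0.0053. Background subtraction took nearly equal amounts from both samples (131.2 and 130.9), so it could hardly change a sign. The mean over probes could move only the 4 genes with more than 1 detected probe. For most genes the table before normalization was thus the only alternative likely to change a sign. Trpv6 was among the 21, although its 2 detected probes had opposite signs. Itpr3, Calml3 and Rcan1 turned positive in the table before normalization scaled to equal medians (Itpr3 to 0.06), and Nfatc1 turned to -0.004 with the mean over probes. Background subtraction, which by construction widens ratios of weak signals, moved 4 genes by more than the SD between probes: Itpr1 to 0.68, Orai3 to 0.49, Trpv6 to 0.33 and Camk2d to -0.21. It called 1 gene at least 1.5-fold higher (3.62% of all genes), 4 at least 1.2-fold higher (13.6% of all genes), and 9 higher and 4 lower at 1.1-fold (27.4% and 25% of all genes). The table before normalization called 1 gene (Plcb3) at 1.2-fold higher (6.56% of all genes), and 9 higher and 1 lower at 1.1-fold (25.7% and 8.99% of all genes). Without a detection filter 38 genes were counted, 1 of them (Casr, not above background) at 1.2-fold higher (1.88% of all genes), 7 at 1.1-fold higher and 4 at 1.1-fold lower (11.9% and 11.6% of all genes). The median log2 ratio of the listed genes stayed between 0.007 and 0.06, and in that table the median of all genes was 0.05. No paired analysis was possible because each group is 1 sample. Signals near background (Itpr1, Orai3, Trpv6, Atp2c1, Camk2d) limit the size of ratio that can be read.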
